A study of Mus musculus with 16 samples.

Results

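The mitochondrial ribosomal proteins were followed as 76 genes of the 12012 in the deposited table. Members were all genes whose symbol begins with Mrpl or Mrps and a number. Mrps36 was left out of the 77 genes with such symbols, because its product is known as a subunit of the 2-oxoglutarate dehydrogenase complex. The symbols gave 48 Mrpl and 28 Mrps genes. By the known structure of the ribosome, 50 of them belong to the large and 26 to the small subunit, since the products of Mrps30 and Mrps18a sit in the large subunit despite their names. Of the 76 proteins, 46 have a counterpart in the bacterial ribosome and 30 are specific to mitochondria. A few proteins of the same ribosome carry other symbols (Dap3, Ptcd3, Chchd1, Aurkaip1, Gadd45gip1 and Ict1), and these are given separately.

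The cells were mouse leukaemias, T-ALL for short (T cell acute lymphoblastic leukaemia), of NOTCH-delta E tumours, in which an active form of the Notch receptor is the driver. They had been transplanted into secondary hosts of the C57BL/6 strain, which ate for 3 weeks a diet with 8 g/kg valine (the control), 0.8 g/kg, 0.4 g/kg or none (0 g/kg). Leukaemic cells were taken from the spleen by their GFP, a sort that marks transplanted cells. Each diet had 2 total RNA libraries and 2 of ribosome-protected fragments (RPF), mRNA pieces covered by ribosomes, labelled T-ALL 2 and T-ALL 3. The total RNA and RPF libraries of a diet and T-ALL number were taken as the same sample. This is an assumption, made because their titles differ only in the fraction. The sample characteristics state the valine dose per kg of diet, while the treatment text speaks of drinking water, and doses are given here as in the characteristics. The labels do not say whether the T-ALL numbers mark separate tumours or separate mice, so p-values measure the spread between these samples alone. The series title links valine supply to respiratory complex I, and the comparisons ask whether mRNAs for the mitochondrial translation machinery differed between diets in amount or in ribosome occupancy.

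Mitochondria keep a small genome that encodes a few subunits of the respiratory chain, and these are made inside the organelle by its own ribosome. The RNA of that ribosome is transcribed in mitochondria, while all of its proteins are encoded in the nucleus, translated by cytosolic ribosomes and imported. Footprints on Mrpl and Mrps mRNAs therefore report cytosolic translation of mitoribosome parts, not the activity of the mitoribosome. Loss of single members is known to lower the synthesis of respiratory chain subunits, complex I included.

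Depth differed strongly between the fractions. Total RNA libraries held 364685 to 1269364 recovered reads and RPF libraries 41848 to 205545, of which 1192 to 4091 and 119 to 524 fell on the 76 genes. Each member had reads in all 8 total RNA libraries. In RPF, 2 to 26 members had no read in a library, and 27 of the 76 (35.5%) had reads in all 8, against 45.0% of the genes tested. The 12 T cell markers, Cd3e among them, took 52.7 to 77.8 of 10000 total RNA reads over the 8 libraries. Of the 8 B cell markers, only Cd79b was analysed here. It was at 0 reads in every total RNA library, but had 2 RPF reads in T-ALL 2 on 0 g/kg. In T-ALL 3 it had 1 RPF read on 0.4 g/kg and 1 on 0.8 g/kg. Neutrophil and erythroid markers moved with the diet and are given beside the results they touch.

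In total RNA the 76 genes were expressed above the typical gene of these cells. Levels are in FPKM, which divides the fragments of a gene by its length and by the size of the library, so that genes of unlike length can be compared. The median over members of the mean FPKM was 26.7, against 11.7 over all tested genes, and the members ranged from 5.99 FPKM (Mrps17) to 121 FPKM (Mrpl52). Medians were 28.7 FPKM for the large and 23.7 FPKM for the small subunit.

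The 5 members with the highest mean FPKM in total RNA, all of the large subunit, were Mrpl52, Mrpl18, Mrpl42, Mrpl24 and Mrpl54. Mrpl52 had 141 and 98.6 FPKM on 0 g/kg (T-ALL 2, then T-ALL 3), 143 and 132 on 0.4 g/kg, 126 and 103 on 0.8 g/kg, and 128 and 99.9 on 8 g/kg. In each diet T-ALL 2 was the higher, and the diets overlapped. Mrpl18, whose bacterial counterpart binds 5S ribosomal RNA, was steady at 74.5 to 99.8 FPKM, with a mean of 83.0 ± 7.64 (SD, n = 8). The lowest members were Mrps17 (5.99 FPKM), Mrpl17 (6.07), Mrps10 (6.09), Mrps25 (6.57) and Mrpl47 (6.94).

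In RPF the median over members was 17.6 FPKM, against 10.7 over tested genes. The highest members were Mrpl18 (101 FPKM), Mrpl41 (89.2), Mrpl24 (76.8), Mrps21 (75.4) and Mrpl28 (51.0). The lowest were Mrps10 (1.87 FPKM), Mrpl35 (2.13), Mrpl17 (2.74), Mrps17 (2.74) and Mrpl30 (3.83). Across the 76 members the log2 mean FPKM of the fractions had a Pearson r of 0.77, a description over genes that share libraries and gene lengths. The plot of RPF against total RNA levels shows this spread.

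**Figure D1:**
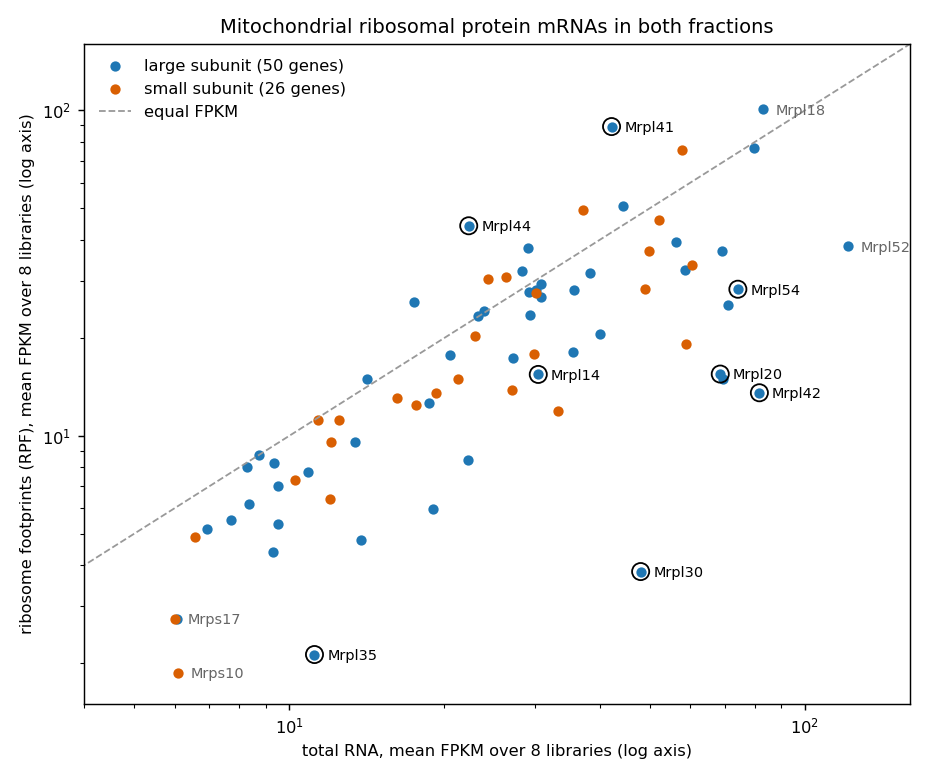
Mean FPKM over 8 total RNA libraries (horizontal, log axis) against mean FPKM over 8 RPF libraries (vertical, log axis) for the 50 large-subunit and 26 small-subunit genes. The dashed line marks equal FPKM, and circles mark the 8 genes whose RPF to total ratio differed from that of the median gene by limma, among them Mrpl30 at 48.1 FPKM in total RNA and 3.83 FPKM in RPF.

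On the valine-free diet the total RNA of mitoribosome genes was lower than on the control diet by a small amount, spread over both subunits. Of the 76 members, 57 (75%) had a lower mean on 0 than on 8 g/kg, against 54.0% of the 10054 genes tested. The median log2 change was -0.15 over members and -0.04 over all tested genes. In T-ALL 2 alone the members' median was -0.11 with 47 lower, and in T-ALL 3 it was -0.32 with 60 lower. Members lower in both T-ALLs numbered 39 of 76, while 29.6% of tested genes were. In sorted bulk cells, fewer cells of a type and less RNA per cell cannot be told apart.

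No member passed the test. By limma with Benjamini-Hochberg adjustment at 0.05, 0 of 76 members and 0 of 10054 genes (0%) differed, and limma's voom fit on recovered reads called 0 members and 3 genes. At an unadjusted p under 0.05, 12 members were lower, against 4.02% of all tested genes, and 1 was higher, against 2.57%. The median without the 0 g/kg library of T-ALL 3 was -0.12 with 48 members lower, and without that of T-ALL 2 it was -0.31 with 62 lower. With all libraries thinned to equal depth the median was -0.28, and by voom it was -0.12 while the median of all genes was 0.03.

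The share of all total RNA reads that fell on the members gave the same order. On 8 g/kg, 32.2 and 33.1 of 10000 reads (T-ALL 2, then T-ALL 3) fell on the 76 genes. On 0.8 g/kg the shares were 31.3 and 33.1, and on 0.4 g/kg 32.7 and 31.4. On 0 g/kg they were 30.2 (95% Wilson interval 28.9 to 31.5) and 27.8 (26.3 to 29.5). Both valine-free libraries lay below the other 6, and the mean share was 29.0 ± 1.68 (SD, n = 2) against 32.7 ± 0.593 on the control diet. Intervals cover counting error only. With 2 libraries against 2 an exact permutation test cannot give a p below 0.333, so none was run. Without the 5 members that held most reads, the log2 ratio of the shares was -0.18, against -0.17 with them.

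The large subunit held 22.3 and 22.6 of 10000 total RNA reads on 8 g/kg and 20.6 and 19.6 on 0 g/kg. The small subunit held 9.91 and 10.5 on 8 g/kg and 9.59 and 8.27 on 0 g/kg. Median log2 changes per gene were -0.14 for the large subunit with 37 of 50 lower, and -0.16 for the small subunit with 20 of 26 lower. Members with a bacterial counterpart (median -0.15, 34 of 46 lower) and those specific to mitochondria (median -0.15, 23 of 30 lower) had like values.

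Markers of other blood cells differed between the same libraries. The 11 neutrophil markers were all higher on 0 than on 8 g/kg. Together they took 4.72 and 2.22 of 10000 total RNA reads on 0 g/kg (T-ALL 2, then T-ALL 3) against 0.181 and 0.165 on 8 g/kg. By limma 0 of the 11 passed, with 10 higher at an unadjusted p under 0.05, against 2.57% of all tested genes. All 9 tested erythroid markers were lower, 6 of them at an unadjusted p under 0.05, against 4.02% of all tested genes. Erythroid markers took 0.28 to 0.369 of 10000 reads on 0 g/kg against 1.7 to 4.35 on 8 g/kg. T cell markers took 56.6 and 60.2 of 10000 reads on 0 g/kg and 56.2 and 73.0 on 8 g/kg, which overlap. The part of these cell types in the members' values was not tested.

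**Figure D2:**
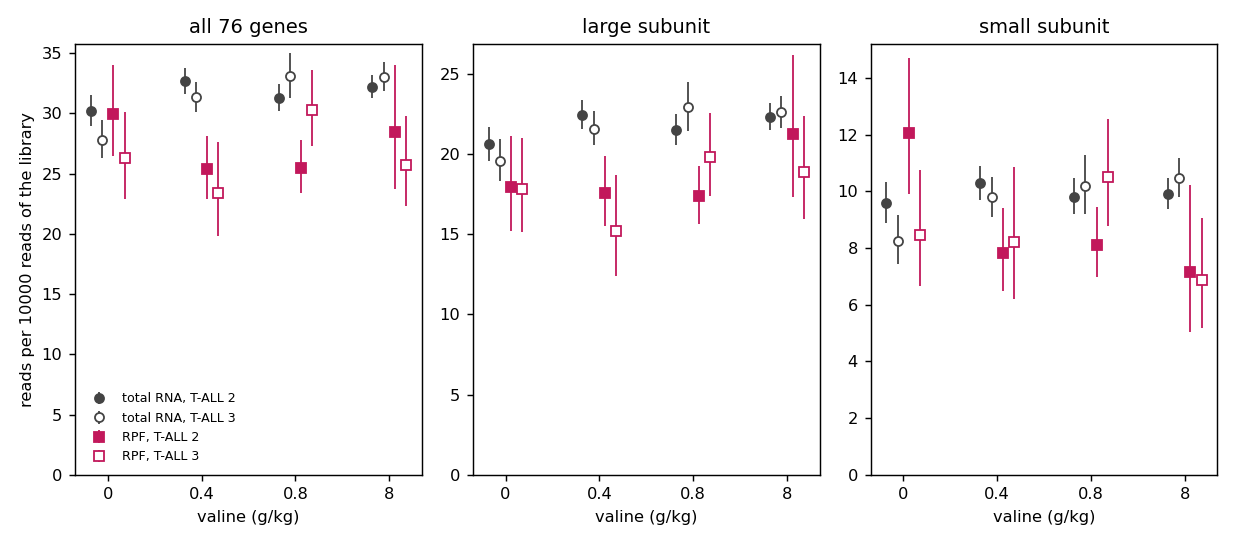
Reads per 10000 reads of a library that fell on all 76 genes, the large subunit and the small subunit (vertical), by valine in the diet (horizontal), with 95% Wilson intervals. Total RNA points of both T-ALLs are lowest on 0 g/kg (30.2 and 27.8 for all 76 genes). RPF points of 0 and 8 g/kg overlap for all 76 genes, where both 0.4 g/kg points are the lowest. RPF points on 0 g/kg are below both on 8 g/kg for the large subunit and above both for the small subunit.

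The small-subunit gene Mrps34 had the smallest p among members. Its product is specific to mitochondria and is needed for a stable small subunit. The gene lies at chr17:24895120-24896289 (GRCm38.p6). Its total RNA was 19.7 and 19.2 FPKM on 0 g/kg, 24.9 and 21.0 on 0.4 g/kg, 35.2 and 45.2 on 0.8 g/kg, and 38.5 and 37.1 on 8 g/kg. Both valine-free libraries were the lowest of the 8 and both 0.4 g/kg libraries came next, without overlap with the 2 higher doses. The log2 change from 8 to 0 g/kg was -0.94 ± 0.22 (SE), near equal in T-ALL 2 (-0.95) and T-ALL 3 (-0.93), with an adjusted p of 0.346 by limma.

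Mrps11, whose bacterial counterpart lies on the platform of the small subunit, had the lowest log2 change of the 76. It had 19.0 and 9.13 FPKM on 0 g/kg, 30.9 and 31.9 on 0.4 g/kg, 16.8 and 20.2 on 0.8 g/kg, and 34.8 and 31.9 on 8 g/kg. The valine-free libraries lay below both controls but overlapped with 0.8 g/kg. The log2 change was -1.30 ± 0.33 (SE) with an adjusted p of 0.402 by limma. It was -0.79 without the 0 g/kg library of T-ALL 3 and -1.81 without that of T-ALL 2. Mrps11 (chr7:78783131-78792988) shares its promoter region with Mrpl46 on the other strand, and the start sites lie 40 bases apart. Mrpl46 had 38.1 and 21.3 FPKM on 0 g/kg and 26.2 and 29.7 on 8 g/kg, a log2 change of 0.03 ± 0.35 (SE), so the neighbours did not share a direction in both T-ALLs.

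Among large-subunit genes, Mrpl39, Mrpl55 and Mrpl47 had the smallest p. Mrpl39, specific to mitochondria, had 15.5 and 14.7 FPKM on 0 g/kg, 20.5 and 23.6 on 0.4 g/kg, 19.6 and 18.6 on 0.8 g/kg, and 27.4 and 24.3 on 8 g/kg. The diets 0 and 8 g/kg were the lowest and the highest, with 0.4 and 0.8 g/kg between them. Its log2 change was -0.76 ± 0.22 (SE; adjusted p 0.549, limma).

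Mrpl55 showed a step between doses. It had 14.8 and 12.8 FPKM on 0 g/kg, 17.4 and 14.0 on 0.4 g/kg, 25.2 and 42.1 on 0.8 g/kg, and 25.1 and 26.2 on 8 g/kg. The 2 lower doses overlapped with each other and lay below the 2 higher ones. Its log2 change from 8 to 0 g/kg was -0.87 ± 0.29 (SE; adjusted p 0.627, limma). Mrpl47, the counterpart of a bacterial protein at the exit of the peptide tunnel, had 4.59 and 3.58 FPKM on 0 g/kg against 8.32 and 9.24 on 8 g/kg, a change of -1.02 ± 0.34 (SE; adjusted p 0.640, limma).

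Counted over single genes, both valine-free libraries lay below all 6 others in 11 members, against 5.46% of tested genes. These were Mrpl13, Mrpl24, Mrpl30, Mrpl39, Mrpl41, Mrpl47, Mrpl54, Mrps10, Mrps17, Mrps24 and Mrps34. Both lay below the controls in 29 members, against 20.3% of tested genes. The best covered of the 11 was Mrpl24, with 62.3 and 63.0 FPKM on 0 g/kg and 74.4 to 102 FPKM elsewhere. Mrpl54 had 48.6 and 51.9 FPKM on 0 g/kg against 66.6 to 116 elsewhere, and Mrps24, a small-subunit member, had 29.5 and 41.2 against 46.9 to 59.5.

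A single member, Mrpl53, had the opposite order, with both valine-free libraries above the other 6 (4.73% of tested genes did so). This large-subunit gene had 45.7 and 37.4 FPKM on 0 g/kg, 25.9 and 28.9 on 0.4 g/kg, 31.7 and 17.1 on 0.8 g/kg, and 19.7 and 27.4 on 8 g/kg. Its log2 change was 0.82 ± 0.31 (SE; adjusted p 0.694, limma). The next members with a higher mean in both T-ALLs were Mrpl33 (0.54 ± 0.33), Mrps27 (0.48 ± 0.35), Mrpl19 (0.24 ± 0.30) and Mrps21 (0.25 ± 0.36), each less than 2 SE from 0. Single libraries moved these values. Mrps27 had 0.013 without the 8 g/kg library of T-ALL 2 and 0.95 without that of T-ALL 3. Without the 0 g/kg library of T-ALL 3, Mrpl19 had 0.0076 and Mrpl33 0.34. Mrps21 turned to -0.051 without the 0 g/kg library of T-ALL 2 and to -0.10 at equal depth.

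**Figure D3:**
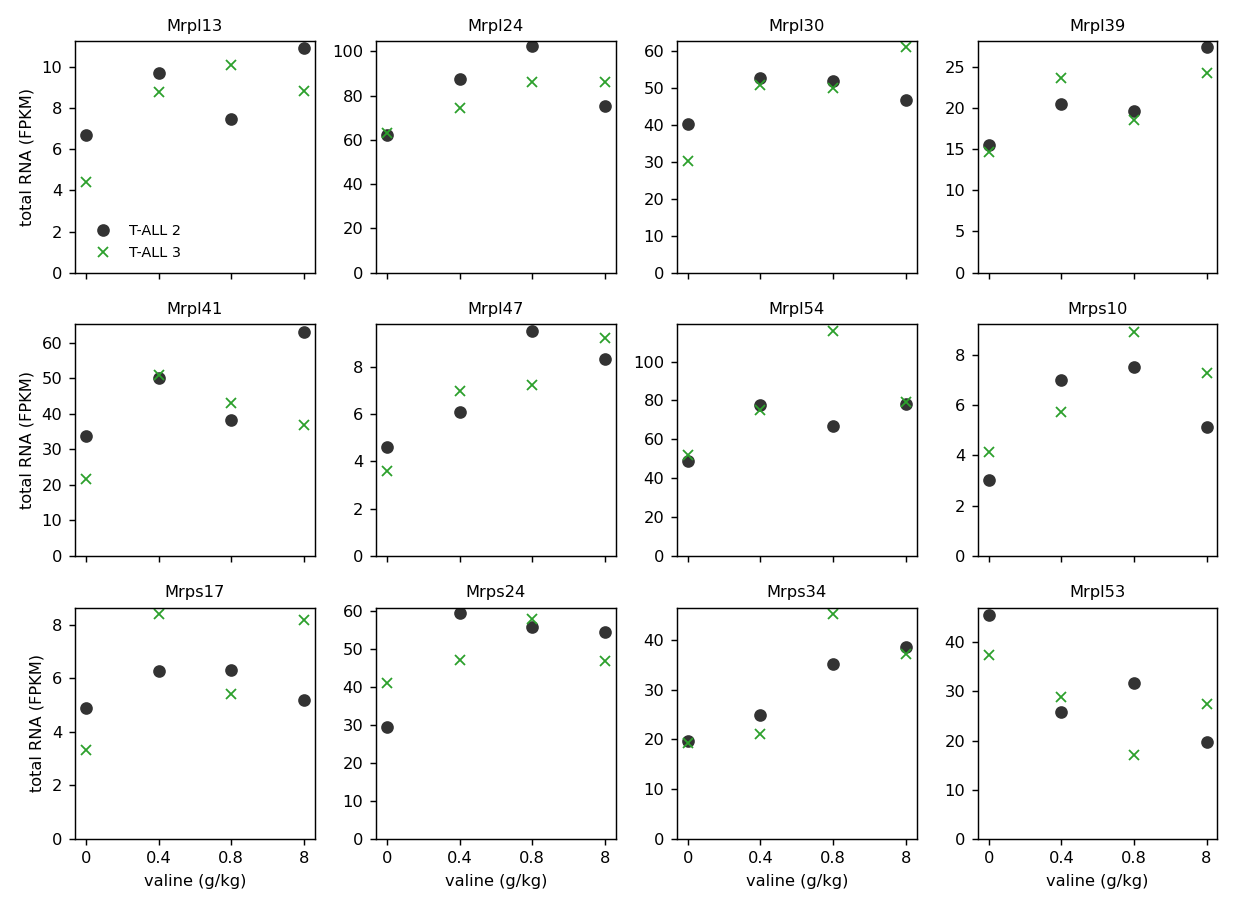
Total RNA level in FPKM (vertical) by valine in the diet (horizontal, in g/kg) for the 12 genes whose valine-free libraries both lay outside the range of the other 6. Circles are T-ALL 2 and crosses T-ALL 3. In 11 genes the points at 0 g/kg are the lowest, as for Mrps34 at 19.7 and 19.2 FPKM, and in Mrpl53 they are the highest.

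Among members known from disease or with special roles, the small-subunit genes Mrps22 and Mrps7 overlapped with the control diet, and the stalk genes Mrpl12 and Mrpl11 had lower means. Mrps22, a small-subunit gene with known disease mutations, had 12.7 and 8.05 FPKM on 0 g/kg and 13 and 9.43 on 8 g/kg. Mrps7, a protein of the head of the small subunit, had 25.2 and 19.7 FPKM against 19.2 and 23.1. Mrpl12, a protein of the stalk that recruits translation factors, had 62.2 and 47.6 FPKM on 0 g/kg against 79.1 and 64.96 on 8 g/kg, lower in both T-ALLs by -0.39 ± 0.23 (SE; log2). Mrpl11, at the base of that stalk, had 6.97 and 8.36 FPKM against 15.2 and 13.5, a log2 change of -0.86 ± 0.33 (SE; adjusted p 0.694, limma).

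The largest split between the T-ALLs was in Mrps18a. It had 18.8 FPKM in T-ALL 2 and 3.26 FPKM in T-ALL 3 on 0 g/kg, against 13.8 and 18.1 on 8 g/kg. The log2 change was thus 0.43 in T-ALL 2 and -2.31 in T-ALL 3. Mrps30, its companion in the large subunit with a small-subunit name, had 57.3 and 44.0 FPKM against 63.8 and 53.8.

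**Figure D4:**
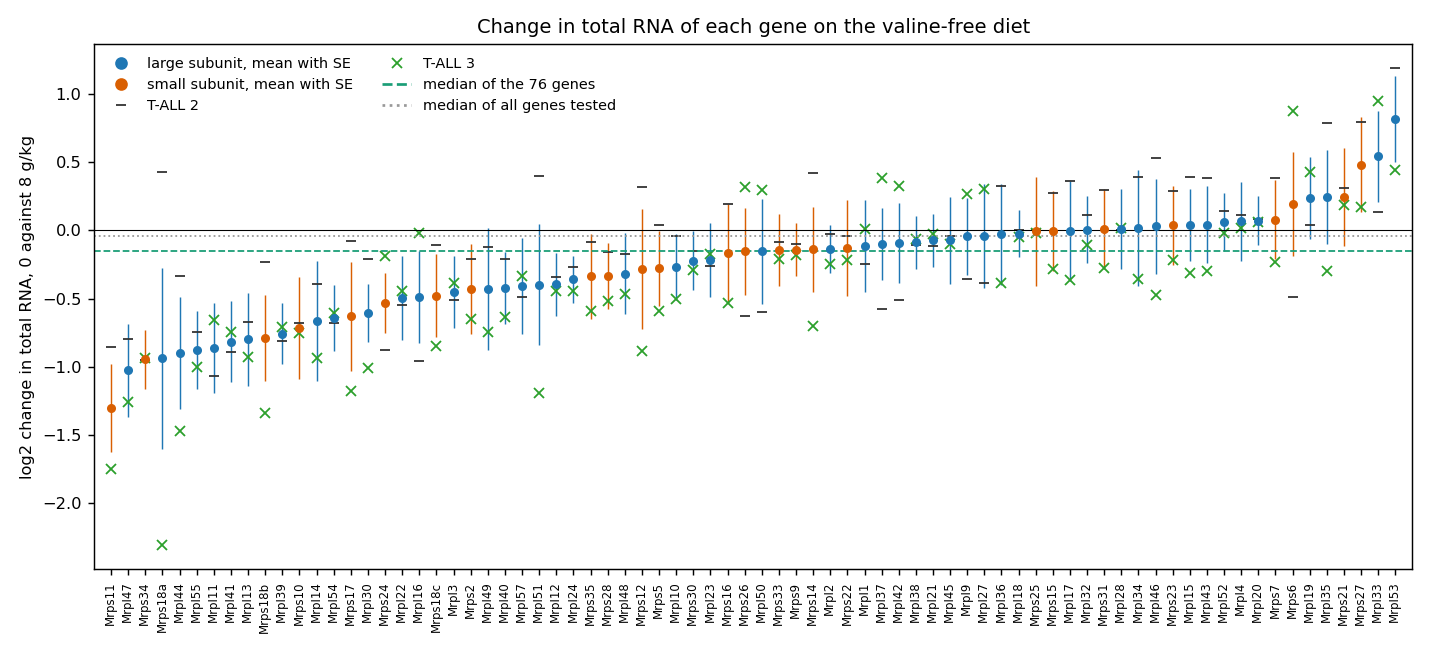
Log2 change in total RNA from 8 to 0 g/kg valine for each of the 76 genes (vertical, on the scale of FPKM + 0.5), ordered by size, with the SE from limma. Dashes and crosses are T-ALL 2 and T-ALL 3 alone. The median of the 76 genes is -0.15 and that of all tested genes -0.04, and Mrps11 (-1.30) and Mrpl53 (0.82) are at the ends.

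Valine at 0.4 or 0.8 g/kg left the members as a group near the control diet. These comparisons use the control libraries of the comparison above. On 0.4 g/kg, 40 of 76 members were lower than on 8 g/kg with a median log2 change of -0.01, and on 0.8 g/kg 39 were lower with a median of -0.02. No member passed the test in either (0% and 0% of 10054 genes, limma), and voom called none. At an unadjusted p under 0.05 there were 4 members on 0.4 g/kg, against 3.09% of genes, and 6 on 0.8 g/kg, against 3.45%.

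Single members on the partial diets were named by the smallest p. On 0.4 g/kg these were Mrps28, with 43.0 and 31.8 FPKM against 68.1 and 66.2 on 8 g/kg, and Mrps34, given above. Higher were Mrps27 (0.64 ± 0.35, log2 with SE) and Mrps15 (0.51 ± 0.29). On 0.8 g/kg Mrpl38 had 23.5 and 21.6 FPKM against 37.8 and 34.0, lower in both T-ALLs, and Mrps11 was named with it. Mrpl2, whose counterpart lies near the peptidyl transferase centre, had 87.2 and 97.3 FPKM on 0.8 g/kg against 68.7 and 66.6, and Mrps2 was second (0.60 ± 0.33). All of these had an adjusted p of 1 by limma.

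Set against the mean of 0.4 and 0.8 g/kg, the valine-free diet had 57 of 76 members lower, with a median log2 change of -0.18 (-0.06 in T-ALL 2 and -0.34 in T-ALL 3) while the median of all genes was -0.01. No member and 0% of genes passed by limma, and voom called 0 members and 8 genes. At an unadjusted p under 0.05, 12 members were lower, against 4.18% of genes, and 1 was higher, against 2.64%. Mrps24 (-0.65 ± 0.19) and Mrps34 (-0.62 ± 0.19) had the smallest p among the lower and Mrpl53 (0.70 ± 0.27) and Mrpl38 (0.35 ± 0.17) among the higher. This comparison shares the valine-free libraries with the one against 8 g/kg.

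The slope over the 4 diets in order of dose had a median of 0.06 log2 units per step and was positive in 53 of 76 members. Over all genes the median was 0.01, and 30.3% of members against 46.8% of genes had a negative slope. None passed by limma (0% of genes), and voom called 0 members and 18 genes. At an unadjusted p under 0.05 there were 9 members, against 6.79% of genes. Mrps34 had the smallest p, with 0.36 ± 0.08 per step (SE; adjusted p 0.341, limma).

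The promoters of 4 members are shown as examples, for the letters of 3 factors known to bind the promoters of mitochondrial genes. Windows of 250 bases before to 50 bases after the RefSeq start were found for 67 of the 76 genes, 73 windows in all (GRCm38.p6). The motifs were GCATGCGC for NRF1, CCGGAAGT for the ETS family and AAGATGGC for YY1, each searched on both strands. The 4 were chosen after their matches and values were seen. Other members with a match, such as Mrps11 (YY1), Mrpl32 (NRF1 and YY1) and Mrpl3 (ETS), are not shown. Each line below holds 60 bases of such a window upstream of its start, 5′ to 3′ on the strand of the gene, with the match in capitals.
Mrpl39: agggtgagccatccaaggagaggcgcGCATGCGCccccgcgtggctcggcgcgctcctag
Mrpl17: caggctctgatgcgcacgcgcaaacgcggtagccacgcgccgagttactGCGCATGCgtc
Mrpl33: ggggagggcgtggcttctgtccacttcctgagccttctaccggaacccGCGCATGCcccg
Mrps27: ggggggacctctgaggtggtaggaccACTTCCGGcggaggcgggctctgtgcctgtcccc
The lines lie at chr16:84735334-84735393 (minus strand), chr7:105811088-105811147 (minus), chr5:31613891-31613950 (plus) and chr13:99344711-99344770 (plus). Mrpl39, Mrpl17 and Mrpl33 hold the NRF1 letters and Mrps27 the ETS letters. The marked matches of Mrpl17, Mrpl33 and Mrps27 are on the reverse strand. Mrpl39 also holds an overlapping NRF1 match on the reverse strand, which is not marked. In total RNA from 8 to 0 g/kg Mrpl39 had a log2 change of -0.76, Mrpl17 of -0.002, Mrpl33 of 0.54 and Mrps27 of 0.48.

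Over all windows of members, 11% held the NRF1 letters, 16.4% the ETS letters and 16.4% the YY1 letters. Among windows of all genes in the table the shares were 5.29%, 8.14% and 4.45%, and among all RefSeq windows 2.71%, 3.89% and 2.75%. At least 1 of the 3 was in 29 of 73 member windows (39.7%), against 16.6% of the windows of genes in the table. A match is a description of letters, not a site of binding. Of the 67 genes, 26 (38.8%) had a start on the other strand within 1000 bases, against 19.8% of 9122 genes of the table. Neighbours in such pairs with a mitochondrial role of their own were Sars2 (with Mrps12), Ptcd2 (with Mrps27), Ndufb5 (with Mrpl47) and Twnk (with Mrpl43).

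Footprints on the 76 genes showed no shift with valine that was detectable at this depth. On 0 g/kg, 30.0 (95% Wilson interval 26.4 to 34.0) and 26.3 (22.9 to 30.1) of 10000 RPF reads fell on them, and on 8 g/kg 28.4 (23.8 to 34.0) and 25.8 (22.3 to 29.7). The 0.4 g/kg libraries had 25.4 and 23.4 and the 0.8 g/kg libraries 25.5 and 30.3. The diets with 0, 0.8 and 8 g/kg overlapped. Both 0.4 g/kg libraries lay below all others, but the 95% Wilson intervals overlapped between all libraries. Neutrophil markers took 3.41 to 27.6 of 10000 RPF reads on 0 g/kg against 0.239 to 0.42 on 8 g/kg, and erythroid markers 0.871 to 2.53 against 4.78 to 17.5, and their part in the members' values was not tested. The log2 ratio of the mean shares was 0.05, and it was -0.044 without the T-ALL 2 library on 0 g/kg, so its sign rested on single libraries.

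In RPF the subunits had opposite orders of their means. Large-subunit genes held 17.9 and 17.8 of 10000 RPF reads on 0 g/kg and 21.3 and 18.9 on 8 g/kg. Small-subunit genes held 12.1 (9.9 to 14.7) and 8.46 (6.67 to 10.8) on 0 g/kg and 7.17 (5.02 to 10.2) and 6.86 (5.19 to 9.07) on 8 g/kg. Both valine-free libraries were above both controls for the small subunit, but the 0.8 g/kg libraries, at 8.12 and 10.5, overlapped with them, and the 95% Wilson intervals of 0 and 8 g/kg overlapped in each T-ALL. The difference between subunits was not tested, as the groups hold 2 libraries each.

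By limma 0 of 76 members and 0% of 9718 genes differed in RPF between 0 and 8 g/kg, and voom called 0 members and 6 genes. At an unadjusted p under 0.05, 3 members were lower, against 2.22% of genes, and 9 higher, against 4.95%. The median log2 change was 0.23 over members and 0.12 over all genes, but the T-ALLs disagreed (0.62 in T-ALL 2 and -0.15 in T-ALL 3). The members' median was 0.07 with libraries centred, 0.04 by quantile normalization, -0.0041 by voom and 0.0015 at equal depth. In 14 members both libraries of a diet had 0 reads. With these set to the bound that 3 reads over the group allow, the median was 0, with 35 members higher and 33 lower.

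The members with the smallest p rested on few reads. Mrps11 had 2 and 3 RPF reads on 0 g/kg, 7 and 4 on 0.4 g/kg, 12 and 4 on 0.8 g/kg, and none in either library on 8 g/kg. Its share on 0 g/kg was 1.18-fold that of a bound of 3 reads on 8 g/kg (adjusted p 0.107, limma). Such bounds leave out the counting error of the diet with reads and are not confidence limits. The mean total RNA of Mrps11, given above, was lower on 0 g/kg. Mrpl27, a counterpart of a bacterial protein at the peptidyl transferase centre, had none on 0 g/kg, 6 and 1 on 0.4 g/kg, 6 and 2 on 0.8 g/kg, and 2 and 2 on 8 g/kg. By the same kind of bound it was 1.88-fold lower on 0 g/kg (adjusted p 0.116, limma). Libraries at 0 reads have equal values on the log scale, so that group shows no spread.

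Further lower members were Mrpl38, with 0 and 1 reads on 0 g/kg against 6 and 6 on 8 g/kg, and Mrpl17, with none on 0 g/kg against 1 and 2. Mrpl48 and Mrpl40 completed the 5 lower. Among higher members, Mrpl20 had 1 and 1 reads, Mrpl14 1 and 2, Mrpl54 1 and 3, and Mrps26 2 and 3 on 0 g/kg, each against none on 8 g/kg. With 4 reads or fewer in all against none, no fold is given for Mrpl20, Mrpl14 and Mrpl54, and Mrps26 was 1.18-fold higher by the bound. Mrps25, with 3 and 3 reads on 0 g/kg against none, was 1.42-fold higher by the bound.

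Mrpl24, the best covered of the members with an unadjusted p under 0.05, gave the clearest reading. It had 13 and 8 RPF reads on 0 g/kg, 14 and 8 on 0.4 g/kg, 25 and 18 on 0.8 g/kg, and 3 and 3 on 8 g/kg. In FPKM these were 108 and 66.1, 73.2 and 90.5, 89.0 and 113, and 47.2 and 27.6. Both control libraries were the lowest of the 8, while in total RNA the valine-free libraries were the lowest. The log2 change in RPF from 8 to 0 g/kg was 1.21 ± 0.44 (SE; adjusted p 0.607, limma).

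The number of members at 0 RPF reads in both libraries of a diet moved with depth. It was 11 on 8 g/kg, where the pair of libraries was the shallowest (Mrpl14, Mrpl20, Mrpl30, Mrpl34, Mrpl35, Mrpl42, Mrpl54, Mrps6, Mrps11, Mrps25 and Mrps26). It was 3 on 0 g/kg (Mrpl17, Mrpl27 and Mrpl55), 3 on 0.4 g/kg (Mrpl42, Mrps18c and Mrps33) and 0 on 0.8 g/kg. The median number of RPF reads per member in both libraries together was 3 on 8 g/kg, 5 on 0 g/kg, 6 on 0.4 g/kg and 10 on 0.8 g/kg. Since the control pair was the shallowest, members at 0 reads there enter the RPF comparisons with 8 g/kg as higher on the other diet.

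On the partial diets no member passed in RPF by limma (0% of genes on 0.4 g/kg and 0% on 0.8 g/kg) and none by voom. At an unadjusted p under 0.05 there were 11 members on 0.4 g/kg, against 6.67% of genes, and 12 on 0.8 g/kg, against 5.58%. The members' median log2 change was 0.20 on 0.4 g/kg and 0.49 on 0.8 g/kg, where the medians of all genes were 0.08 and 0.30. With members at 0 reads set to their bounds it was 0 and 0.26. The smallest adjusted p by limma was that of Mrps11, 0.0793 on 0.4 g/kg and 0.0813 on 0.8 g/kg, against the same control libraries without a read. Mrpl41 was lower on 0.8 g/kg with 7 and 3 reads in the 2 deepest libraries of their T-ALLs against 6 and 8 (-1.93 ± 0.52, log2 with SE; adjusted p 0.764, limma).

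Between 0 g/kg and the mean of the partial diets, 0% of genes and no member passed in RPF by limma, and voom called 0 members and 16 genes. Members with an unadjusted p under 0.05 numbered 4, against 4.5% of genes. Over the dose trend limma called 1 gene (0.0103%), which was not a member, and voom 4 genes and no member. Here 8 members had an unadjusted p under 0.05, against 5.97% of genes.

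Translational efficiency (TE), the RPF to total difference on the log2 scale within a T-ALL, gave no call either. In the 5 comparisons of diets by TE limma called 0 members and 0% of 9361 genes, and so did voom. From 8 to 0 g/kg, 4 members were lower at an unadjusted p under 0.05, against 1.74% of genes, and 11 higher, against 4.84%. The median log2 change in TE was 0.43 over members and 0.20 over all genes, and 0.33 with members at 0 RPF reads set to their bounds. With the same sign in both T-ALLs, the smallest p in TE were those of Mrpl27, Mrpl38, Mrpl17, Mrpl48 and Mrpl45 among the lower and of Mrps11, Mrpl14, Mrps26, Mrpl54 and Mrps25 among the higher. Each of the 10 except Mrpl38, Mrpl48 and Mrpl45 had no RPF read in both libraries of 0 or of 8 g/kg. Members with an unadjusted p under 0.05 numbered 9 on 0.4 g/kg (6.68% of genes), 11 on 0.8 g/kg (6.23%), 5 for 0 g/kg against the partial diets (4.6%) and 8 over the trend (5.94%).

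Summed over the members, the ratio of the RPF share to the total RNA share was highest on the valine-free diet. It was 0.993 and 0.944 on 0 g/kg, 0.776 and 0.747 on 0.4 g/kg, 0.814 and 0.915 on 0.8 g/kg, and 0.882 and 0.779 on 8 g/kg. Both valine-free libraries were above the other 6. The small subunit alone stood at 1.26 and 1.02 on 0 g/kg, 0.76 and 0.838 on 0.4 g/kg, 0.828 and 1.03 on 0.8 g/kg, and 0.723 and 0.655 on 8 g/kg, so that 0 and 0.8 g/kg overlapped. The large subunit stood at 0.869 and 0.91 on 0 g/kg against 0.953 and 0.836 on 8 g/kg, which overlap. The 95% Wilson intervals of the RPF shares of all 76 genes overlapped between all 8 libraries.

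**Figure D5:**
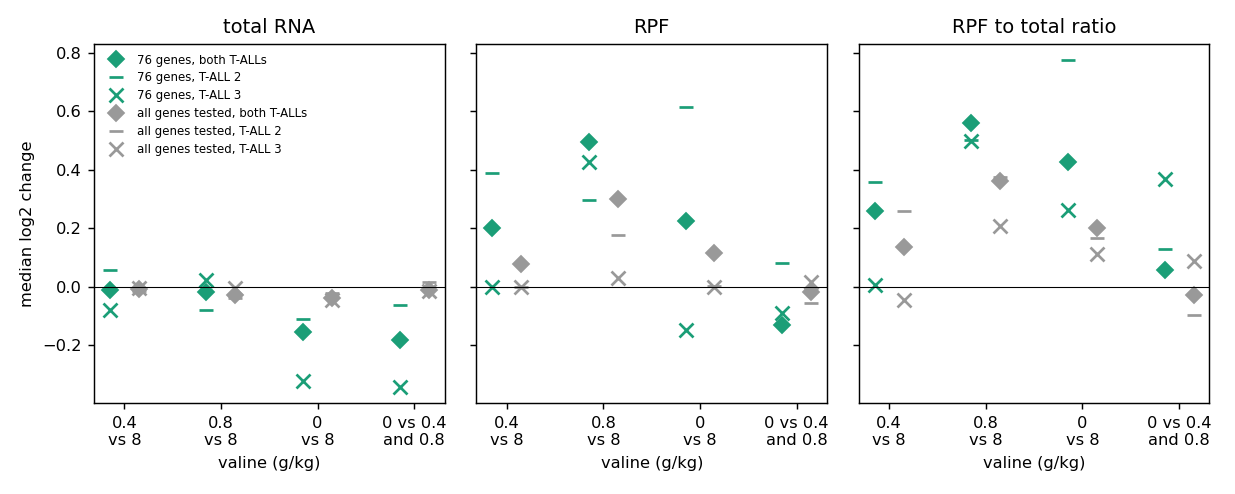
Median log2 change of the 76 genes and of all tested genes (vertical) for each comparison of diets (horizontal), in total RNA, RPF and the RPF to total ratio, with T-ALL 2 and T-ALL 3 alone. In total RNA the 76 genes are at -0.15 for 0 against 8 g/kg and at -0.18 for 0 g/kg against the partial diets. In RPF the T-ALLs are at 0.62 and -0.15 for 0 against 8 g/kg.

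Across all diets 8 of 76 members differed from the median gene in footprints per mRNA by limma, a share similar to the 1041 of 9361 genes tested. In the main setting limma called members in this comparison and in no comparison of diets. Each ratio was the RPF to total difference centred on the median gene of its pair of libraries and averaged over the 8 pairs, and limma tested it against 0. Of 76 members 6 were lower, against 3.6% of the 9361 genes tested, and 2 were higher, against 7.52%. By voom on recovered reads 16 members were lower, against 14.2% of genes, and 2 higher, against 13.0%. The members' median was -0.68, against -0.26 over all genes, with 59 of 76 below 0 (60.9% of genes). Leaving out any pair of libraries lowered the number of all genes called from 1041, so the fall was not confined to members. The number of members called fell from 8. It was 2 without the pair of T-ALL 2 on 8 g/kg or of T-ALL 3 on 0.8 g/kg, and 3 without T-ALL 2 on 0.8 or on 0 g/kg. It was 4 without T-ALL 3 on 0 g/kg, 5 without T-ALL 3 on 8 or on 0.4 g/kg, and 6 without T-ALL 2 on 0.4 g/kg.

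Mrpl30 and Mrpl42, both of the large subunit, had few footprints for their mRNA and passed the test under every setting in which they were tested, and without each pair of libraries. Mrpl30 (chr1:37890477-37898338), a counterpart of a bacterial ribosomal protein, had 30.2 to 61.2 FPKM in total RNA, 503 reads in all. Its RPF reads were 1 and 1 on 0 g/kg, 1 and 1 on 0.4 g/kg, 2 and 0 on 0.8 g/kg, and none on 8 g/kg. With 6 RPF reads its pooled ratio of read shares was 0.0957, the lowest of the 76, where the median member had 0.881 and the median gene 1.05. The log2 ratio was -3.93 ± 0.50 (SE; adjusted p 0.00927, limma).

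Mrpl42 (chr10:95480805-95501949), specific to mitochondria, had 54.8 to 107 FPKM in total RNA and 11 RPF reads against 324 total RNA reads. Of the 11, 7 and 2 were in the 0.8 g/kg libraries and 2 in a 0 g/kg library, and the other 5 had none. Its pooled ratio was 0.272 and its log2 ratio -4.69 ± 0.58 (SE; adjusted p 0.00915, limma). The log2 value is lower than the pooled ratio because libraries with no read enter at the pseudocount.

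The 4 other lower members were Mrpl20 with 15 RPF against 319 total RNA reads (pooled ratio 0.377; adjusted p 0.0152, limma), Mrpl54 with 16 against 257 (0.499; 0.0257), Mrpl14 with 10 against 115 (0.698; 0.0424) and Mrpl35 with 8 against 234 (0.274; 0.0432). All 6 are large-subunit genes. Each had 0 RPF reads in both control libraries, and 9 of the 16 RPF reads of Mrpl54 were in a single library. Each of these 4 lost the call without 1 or more of the pairs of libraries named above. Mrpl14 had a log2 ratio of -0.38 by voom (adjusted p 0.475) against -2.08 by the limma model above. At a pseudocount of 0.1, Mrpl14 (adjusted p 0.0707, limma) and Mrpl35 (0.0651) lost the call, and at equal depth Mrpl54 did (0.0589).

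The higher members were Mrpl44 and Mrpl41, both specific to mitochondria. Mrpl44, which carries a domain related to ribonuclease III, had 51 RPF against 187 total RNA reads. Its RPF reads were 7 and 3 on 0 g/kg, 11 and 1 on 0.4 g/kg, 8 and 8 on 0.8 g/kg, and 4 and 9 on 8 g/kg, so every library held some. Its pooled ratio was 2.19, the highest of the 76, and its log2 ratio 1.18 ± 0.19 (SE; adjusted p 0.0147, limma).

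Mrpl41 had 48 RPF against 203 total RNA reads, 3 to 8 in every RPF library. Its pooled ratio was 1.90 and its log2 ratio 1.26 ± 0.22 (SE; adjusted p 0.0178, limma), but at equal depth the log2 ratio turned to -0.16. Both genes lost the call without some pairs of libraries, with adjusted p of 0.0533 to 0.0587 for Mrpl44 and 0.0517 to 0.0679 for Mrpl41 (limma). Next in pooled ratio were Mrpl3 (1.70), Mrps11 (1.58) and Mrps18b (1.49), and at the low end Mrpl32 (0.313) and Mrps33 (0.327). None of these 5 passed the test.

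The members' genes are short, and short genes had lower ratios in these files. The median gene length of members was 0.471 of that of the median gene, and 18 of 76 were longer than the median gene. Pooled ratios of 54 of 76 members were below the median gene. Among the 1325 tested genes no longer than the median member the median pooled ratio was 0.843, close to the 0.881 of the members. Pooled medians were 0.881 for the large and 0.891 for the small subunit. The part of length in single ratios was not tested.

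The wider machinery of mitochondrial gene expression was read from lists of genes that the members do not include. Proteins of the same ribosome with other symbols had a median log2 change in total RNA from 8 to 0 g/kg of -0.25 with 4 of 6 lower. Chchd1, of the small subunit, had 49.98 and 65.7 FPKM against 77.5 and 92.7, and Ict1, a peptidyl-tRNA hydrolase of the large subunit, 23.2 and 14.9 against 25.3 and 29.9. Aurkaip1 (62.6 and 93.6 against 58.9 and 48.1) was above both controls. Dap3, a GTP-binding small-subunit protein, had a change of -0.21 ± 0.23, Ptcd3 of -0.30 ± 0.24 and Gadd45gip1 of 0.05 ± 0.24 (log2 with SE).

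Translation factors of mitochondria had a median of -0.14 with 10 of 15 lower, assembly factors of the mitoribosome -0.07 with 14 of 27 lower, and genes of mitochondrial RNA synthesis and processing -0.07 with 11 of 17 lower. By limma 0 genes of these 3 lists passed. Of the genes with an unadjusted p under 0.05, 3 were lower (Oxa1l, Mtg1 and Supv3l1), against 4.02% of all tested genes, and 3 higher (Mtg2, Mterf3 and Ftsj2), against 2.57%. Oxa1l, which inserts proteins into the inner membrane, had 38.9 and 21.8 FPKM against 44.8 and 48.0, and Gfm2, a ribosome recycling factor, 8.74 and 10.4 against 5.94 and 6.16. Mtg1, a GTPase of large-subunit assembly, had 4.34 and 5.65 FPKM on 0 g/kg against 13.9 and 10.9, while Mterf3 had 12.5 and 13.3 against 6.32 and 7.16. The helicase Supv3l1 had 19.6 and 14.8 against 25.2 and 28.4.

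The 13 mRNAs that the mitoribosome itself translates had a median of 0.15 with 4 lower. mt-Nd3 and mt-Nd4l, of complex I, had the smallest p. mt-Nd3 had 488 and 485 FPKM on 0 g/kg against 256 and 302 on 8 g/kg (0.81 ± 0.16, log2 with SE; adjusted p 0.267, limma), and mt-Nd4l 1222 and 1404 against 833 and 829 (0.66 ± 0.12; 0.267). In RPF relative to total RNA all 13 were lower than the median gene, 8 of them past the test by limma, against 3.6% of the 9361 genes tested. Their footprints are those of mitoribosomes, while those of the median gene are of cytosolic ribosomes. Whether the libraries recovered both kinds alike was not tested, so the ratio is not a measure of how well these mRNAs were translated.

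In total RNA the genes whose log2 level over the 8 libraries was most like the mean of the members were Cox7a2 (Pearson r 0.975), Osbpl11 (0.974), Ywhae (0.973), Ddx3x (0.966) and Txn1 (0.963). They were the highest of 5467 genes with a mean of at least 10 FPKM, and the values describe 8 libraries that share depth and diet.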

How the data were processed

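Values came as FPKM per gene in a deposited table of 16 libraries made by the authors. Per the submitters' processing notes, the tools included cutadapt 1.18, edgeR 3.14.0, STAR 2.5.0c and Bowtie2 2.3.4, and the genome builds were given as GRCm38 and mm10. What each tool did, the gene filter and the FPKM formula are not stated in samples or headers. Whole reads were recovered from the steps between values: of 149988 values above 0, 100% were whole within 0.02 reads.

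The total RNA and RPF fractions were each modelled in limma 3.58.1 (R 4.3.3). The model held a term for each diet over 8 libraries and used log2(FPKM + 0.5) of genes with mean FPKM of 1 or more. Moderation followed the expression trend, tests were two-sided, and Benjamini-Hochberg adjustment covered all genes tested. Fold changes of low genes on this scale are shrunk by the added 0.5 where libraries hold reads. Where a group had no RPF read they can be far too large. Mrpl14 had a log2 change of 5.63 in RPF from 8 to 0 g/kg, on 3 reads against none. The code was tested on simulated data. Shares have 95% Wilson intervals, and groups at 0 were bounded with 3 reads over the group. That bound leaves out the counting error of the group with reads.

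Genes were named if past the test, or, with the same sign in both T-ALLs, by the smallest p (5 a direction at 0 against 8 g/kg in total RNA, RPF and TE, 2 in the other comparisons of single doses), by the 5 highest and lowest levels and ratios, by 0 reads in a group, by separation of the valine-free libraries, or from a fixed set. The members and lists were chosen with earlier results of these data known. Of the 76 members, 67 had a RefSeq promoter window (GRCm38.p6). Summed shares, pooled read ratios and the comparison by gene length were added after seeing the data. Genes with near-identical copies or overlapping neighbours may share reads. Deviations of same-numbered libraries correlated above 0.1 in 4 of 6 pairs of diets in total RNA and in 0 of 6 in RPF. As not every pair did, the T-ALL number was used as a block only as an alternative. Other alternatives were the pseudocount, the filter, centring, quantile normalization, voom, equal depth, other member lists and leaving out libraries.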

Additional observations from a re-analysis of the deposited data

How the results depend on the processing

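Depth limits the RPF values: the median member had 24 RPF reads over 8 libraries and 236 total RNA reads, and each group had 2 libraries. An exact permutation test of 2 against 2 cannot go below p = 0.333. In total RNA 0 members were called under every setting tried. With the T-ALL number as a replicate block the total RNA median for 0 against 8 g/kg stayed at -0.15 with 0 members called. The block called 6 members and 705 of all 9361 genes in the RPF to total ratio over all diets. There Mrpl14 (adjusted p 0.0667, limma) and Mrpl35 (0.0524) lost the call. Same-numbered libraries correlated at -0.04 to 0.25 in total RNA and -0.02 to 0.07 in RPF.

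Of the summary results under settings that keep all libraries, 350 stayed near their main value and 28 moved. Medians and share ratios counted as near if they differed from the main value by less than the SD between the T-ALLs. Numbers of calls counted as near if they were alike. The sign was not checked, and a wide split between the T-ALLs made this rule loose. The RPF median for 0 against 8 g/kg counted as near at 0.23 in the main setting and -0.0041 by voom. At equal depth the members called in RPF were 2 for 0 against 8 g/kg, 1 for 0.4, 2 for 0.8 and 1 for 0 g/kg against the partial diets. For 0 against 8 g/kg, 72 of all 9718 genes were called at equal depth. The numbers over all genes in the other comparisons are not given here. The RPF median for 0.4 against 8 g/kg was -0.10 by voom. For 0.8 against 8 g/kg it was 0.40 at a pseudocount of 1, 0.31 centred, 0.25 by quantiles, -0.14 by voom and 0 at equal depth. For 0 g/kg against the partial diets it was 0.094 by voom and 0.10 at equal depth. The TE median for 0.4 g/kg was -0.083 at equal depth. For 0.8 g/kg it was 0.79 and 0.49 at pseudocounts of 0.1 and 1, 0.49 with the filter at 5 FPKM, 0.36 centred, 0.24 by quantiles, -0.20 by voom and 0.040 at equal depth. With 5 genes of other symbols added it was 0.50, and with Mrps36 added 0.63. For 0 g/kg against the partial diets TE was 0.23 by voom and 0.32 at equal depth. The ratio over all diets had a median of -0.97 at a pseudocount of 0.1, -0.32 by voom and -0.94 at equal depth. By voom 18 members and 2544 of all 9361 genes were called in it. Reversed were Mrps21 in total RNA (-0.10 at equal depth, and -0.051 to 0.54 leaving out each library, lowest without T-ALL 2 on 0 g/kg) and Mrpl41 in the ratio (-0.16 at equal depth). The cause was not tested.

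Leaving out each library gave total RNA medians of -0.31 to -0.12 for 0 against 8 g/kg, -0.08 to 0.05 for 0.4, -0.09 to 0.04 for 0.8, -0.32 to -0.08 for 0 g/kg against the partial diets and 0.05 to 0.08 for the trend. RPF medians were -0.15 to 0.70, -0.087 to 0.77, 0.41 to 0.72, -0.23 to 0.35 and -0.17 to 0.14 in the same order. Numbers of RPF members called are not given for these fits, which leave 1 library in a group. TE medians were 0.18 to 0.94, 0.030 to 0.80, 0.41 to 0.85, -0.13 to 0.38 and -0.18 to -0.0043. The ratio over all diets had a median of -0.83 to -0.58 and 2 to 6 members called. Log2 ratios of shares for 0 against 8 g/kg were -0.23 to -0.11 for all members in total RNA (large subunit -0.20 to -0.12, small -0.30 to -0.09) and -0.044 to 0.15 in RPF (large -0.25 to -0.08, small 0.27 to 0.78).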
